A study of Mus musculus with 8 samples.

Results

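The 49 genes described here encode the machinery that copies nuclear DNA, namely the factors that license origins, the replicative helicase, the polymerases, the sliding clamp and its loaders, the fork proteins and the chromatin factors of S phase. They were chosen by symbol for those roles and matched to the Ensembl identifiers of the count files, where all 49 were among the 41214 genes listed. Each of the 49 also passed the filter on low counts, which kept 16456 genes for testing. Their levels were measured by RNA sequencing of messenger RNA from 8 spleen tumours of C57Bl6 mice, 2 tumours in each of 4 groups and each from a separate mouse. The series asks what deletion of the POZ domain of Miz1 does to expression in B and T cell leukemias. Miz1, the product of Zbtb17, belongs to the zinc finger transcription factors and partners with Myc, and its POZ domain mediates the assembly of Miz1 into multimers.

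The groups were T deltaPOZ (CD4+ T cell tumours, labelled Miz1 deltaPOZ), T wt (CD4+ T cell tumours, Miz1 wt), B deltaPOZ (B cell tumours, Miz1 deltaPOZ) and B wt (B cell tumours, Miz1 wt). All 8 samples were whole spleen tumours of 1 strain, and the labels used here give no age, no treatment, no oncogene for the B tumours and no promoter or cell type for the deletion. The deposited names of all 4 T libraries carry the tag Notch, and those of both T deltaPOZ libraries also carry the tag ENU, which the T wt names lack. The labels do not say what either tag stands for, so genotype and the ENU tag cannot be told apart in T. The deposited names also give 1 run number for the B libraries and another for the T libraries, so run and lineage cannot be told apart.

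Before S phase the origin recognition complex, Cdc6 and Cdt1 load the MCM2-7 ring onto DNA, and geminin (Gmnn) blocks renewed loading. Cdc45 and the GINS complex then join the ring to make the active helicase, the primase and the polymerases alpha, delta and epsilon copy the strands, and RFC loads the clamp PCNA that holds the polymerases in place. Most of these genes are transcribed around the transition from G1 to S phase under E2F control, so that their messenger RNA is abundant in dividing lymphocytes and in leukemias. In whole tumours, fewer cells of a type and less RNA per cell cannot be told apart.

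The libraries held 44.3 to 58.3 M gene counts, and the lowest count of any member in any library was 716, for Dscc1. Levels are given as CPM, counts scaled to the normalized library total. The B lineage markers (8 of 8 detected) summed to 25.4 to 136.6 CPM in T and 1818 to 2868 CPM in B. The T lineage markers (8 of 8) summed to 1844 to 2673 CPM in T and 17.4 to 64.1 CPM in B. Each library thus carried the markers of its label, but the sums were lower in deltaPOZ. The T marker sum was 1844 and 2045 CPM in T deltaPOZ and 2373 and 2673 CPM in T wt. The B marker sum was 1918 and 1818 CPM in B deltaPOZ and 2868 and 2309 CPM in B wt. Not every marker went that way: Thy1 was at 213.6 and 287.5 CPM in T deltaPOZ and 163.6 and 200.2 CPM in T wt. The part of these differences in the results was not tested. Zbtb17 was at 40.1 and 36.9 CPM in T deltaPOZ and 49.6 and 42.3 CPM in T wt, and at 49.4 and 59.1 CPM in B deltaPOZ and 66.1 and 48.0 CPM in B wt. A count over the whole gene does not show whether the exons of the POZ domain are present. Of the 8 libraries, T deltaPOZ 2, B wt 2 and T wt 1 were taken as the 3 that stood apart, on the features below. They were not the only ones to differ from their lineage. Rag1 was at 8.30 CPM in T deltaPOZ 1, against 758.4 to 1068 CPM in the other T libraries. It was at 50.3 CPM in B deltaPOZ 2, against 482.0 to 1596 CPM in the other B libraries. In T deltaPOZ 2, 25387 genes had a count, against 18339 to 21078 genes in the other 7 libraries. B wt 2 had the highest level of all 10 neutrophil markers in B, summed 741.0 CPM, against 53.0 to 123.8 CPM in the other B libraries. Macrophage markers summed to 517.1 CPM in B deltaPOZ 1, which was the highest B library in 8 of the 10, and to 773.2 CPM in B wt 2, of which Lyz2 gave 633.4 CPM, against 98.5 and 129.0 CPM in the other 2 B libraries. The part of these cells in the B results was not tested. T wt 1 had both Xist and a low level of Ddx3y from the Y chromosome (22.5 CPM). Sex-linked transcripts did not follow genotype alike in the lineages. Xist was at 0.936 and 0.757 CPM in B deltaPOZ and 975.1 and 1477 CPM in B wt, whereas in T it was at 11.8 and 35.4 CPM in T deltaPOZ, 1246 CPM in T wt 1 and 26.0 CPM in T wt 2. Ddx3y was at 174.4 and 132.8 CPM in B deltaPOZ and 0.095 and 0.289 CPM in B wt, so sex and genotype cannot be told apart in B. The part of sex in the results below was not tested.

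The members were abundant in every library. Per kilobase of exon, their median level over the 8 libraries was 31.0 CPM per kb, against 3.88 CPM per kb for all tested genes with an exon length, and 89.3% of those genes lay below the members' median. The clamp Pcna had the highest level of the 49, at 213.9 CPM per kb, and MCM subunits took 5 of the next 6 places: Mcm6 (148.2), Mcm5 (116.0), Mcm3 (112.8), Mcm7 (102.3) and Mcm4 (93.5 CPM per kb). The sixth gene among them was Cdca7, a cofactor of the chromatin remodeller Hells, at 124.1 CPM per kb. Mcm2, the remaining subunit of the ring, was lower at 48.0 CPM per kb. Exon lengths here are unions over all annotated transcripts, so a long union lowers this measure. The union was 6956 bases for Mcm2 and 3589 bases for Mcm4. Before division by length, Mcm2 was at 255.2 to 407.6 CPM and Mcm4 at 280.8 to 452.7 CPM over the 8 libraries. The subunits of the GINS complex, which in the protein complex are present in equal numbers, were uneven on this measure. Gins4 was at 45.2, Gins1 at 30.0, Gins3 at 10.7 and Gins2 at 6.87 CPM per kb. Their exon lengths were 1349, 1516, 2709 and 4097 bases in that order. Before division by length the gap was smaller, at 49.2 to 70.1, 24.3 to 65.0, 20.9 to 38.7 and 19.3 to 44.5 CPM. The lowest of the 49 was Dscc1, a subunit of the alternative clamp loader that acts in sister chromatid cohesion, at 3.72 CPM per kb. Chtf18, the large subunit of the same loader, was at 8.17 CPM per kb.

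Because E2F and other factors are known to act at these promoters, the windows from 250 bases before to 50 bases after each gene's start were read from RefSeq (GRCm38.p6), which gave a window for 39 of the 49. Mcm4, Gins1, Gins2, Gins4, Prim2, Pole, Rfc2, Tipin, Dscc1 and Gmnn were without one. E2F letters (TTTCCCGC, TTTCGCGC, TTTGCCGC or TTTGGCGC, on either strand) were present in 17 of the 39 windows (43.6%), against 4.43% of the windows of 11326 tested genes. CCAAT, the letters of the NF-Y box, was in 24 of 39 (61.5%), against 42.5%. TTTGAA, letters of the cell cycle homology region of G2 and M genes, was in 5 of 39 (12.8%), against 14.7%. ATCGAT, the core of a motif reported for Miz1, was in 0 of 39, against 0.998% of the windows of tested genes. The 4 windows below belong to the members with the smallest p, among those with a window, in the comparisons that follow, Hells for T, Rpa2 for B, Cdca7 for the mean of both lineages and Pole2 for the difference between them. They are written 5′ to 3′ on the strand of the gene, with the E2F letters in capitals, and show 3 windows with a match and 1, that of Rpa2, with none. The Hells window is chr19:38930740-38931039 on the plus strand, with its match from base -62 relative to the start. The Cdca7 window is chr2:72475969-72476268 on the plus strand, with its match, on the opposite strand, from base -71. The Pole2 window is chr12:69228141-69228440 on the minus strand, with its match, on the opposite strand, from base 10 after the start. The Rpa2 window is chr4:132768110-132768409 on the plus strand.
Hells: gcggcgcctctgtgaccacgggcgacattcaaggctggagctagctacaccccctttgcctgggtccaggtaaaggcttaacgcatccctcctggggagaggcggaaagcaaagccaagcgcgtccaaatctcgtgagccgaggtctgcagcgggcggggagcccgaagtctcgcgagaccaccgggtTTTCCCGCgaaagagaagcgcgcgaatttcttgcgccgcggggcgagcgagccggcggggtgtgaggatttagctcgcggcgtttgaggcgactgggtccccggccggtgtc
Cdca7: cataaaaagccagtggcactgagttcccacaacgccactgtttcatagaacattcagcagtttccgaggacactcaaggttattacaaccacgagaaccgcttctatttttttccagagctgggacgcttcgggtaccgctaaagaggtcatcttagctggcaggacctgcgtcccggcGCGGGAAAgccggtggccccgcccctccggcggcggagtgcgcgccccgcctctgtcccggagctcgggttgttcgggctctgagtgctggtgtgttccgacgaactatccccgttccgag
Pole2: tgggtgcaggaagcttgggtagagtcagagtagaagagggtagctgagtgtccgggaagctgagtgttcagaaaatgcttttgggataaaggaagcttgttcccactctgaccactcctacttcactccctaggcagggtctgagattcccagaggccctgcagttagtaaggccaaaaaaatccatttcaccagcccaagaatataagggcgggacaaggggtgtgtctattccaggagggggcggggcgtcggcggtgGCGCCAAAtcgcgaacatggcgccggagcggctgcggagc
Rpa2: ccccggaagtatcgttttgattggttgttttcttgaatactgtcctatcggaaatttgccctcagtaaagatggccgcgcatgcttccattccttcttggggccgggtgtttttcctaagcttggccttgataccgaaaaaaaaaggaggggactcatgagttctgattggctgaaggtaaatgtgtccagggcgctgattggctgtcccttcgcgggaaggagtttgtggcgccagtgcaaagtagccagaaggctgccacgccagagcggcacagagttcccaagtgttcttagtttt
In T deltaPOZ against T wt the median log2 fold change was 0.27 over the 17 members with E2F letters and 0.24 over the 22 without. In B the medians were -0.01 with and 0.10 without the letters. These are descriptions of the letters in the windows, and a match is not a bound site.

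The first comparison was T deltaPOZ against T wt. Nearly all replication genes had a higher mean level in T deltaPOZ, but by small amounts, and none passed the test. Of the 49 members, 47 had a positive log2 fold change (48 with upper-quartile scaling), and the median was 0.27, while 49.8% of all tested genes were positive and their median was 0.00. In 31 members (63.3%) both T deltaPOZ libraries lay above both T wt libraries, which held for 15.4% of all tested genes, and in 0 members did both lie below, against 17.0% of all genes. edgeR's quasi-likelihood test called 0 of the 49 members and 0 of the 16456 genes (0.0%) at an adjusted p of 0.05. At an unadjusted p below 0.05 it had 4 members and 436 genes (2.65%), and DESeq2 called 0 members and 51 genes, limma-voom 0 members and 0 genes. T wt 1 was the lowest T library in 41 of the 49 members. The members' median deviation from the T mean was 0.20 in T deltaPOZ 1 and 0.08 in T deltaPOZ 2, against -0.23 in T wt 1 and -0.02 in T wt 2 on the log2 scale. Without T wt 1 the median fold change was 0.17 with 41 of 49 positive, and both T deltaPOZ libraries lay above T wt 2 in 33 members (67.3%), against 29.8% of all tested genes, and below it in 6 members, against 33.6%. Without T wt 1, T deltaPOZ 2 and B wt 2 together the median was 0.20 with 35 of 49 positive. T wt 1 also had the highest sum of neutrophil markers among T (10 of 10 detected), at 866.8 CPM. That sum was 54.5 CPM in T wt 2, and 437.8 and 112.2 CPM in T deltaPOZ 1 and 2. Of the 10 markers, 7 were highest in T wt 1 and 3 in T deltaPOZ 1. Erythroid markers were lowest in T wt 1 for 10 of 12 (summed 5999 CPM) and highest in T wt 2 for 12 of 12 (summed 27385 CPM). The part of these cells in the result was not tested.

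**Figure D1:**
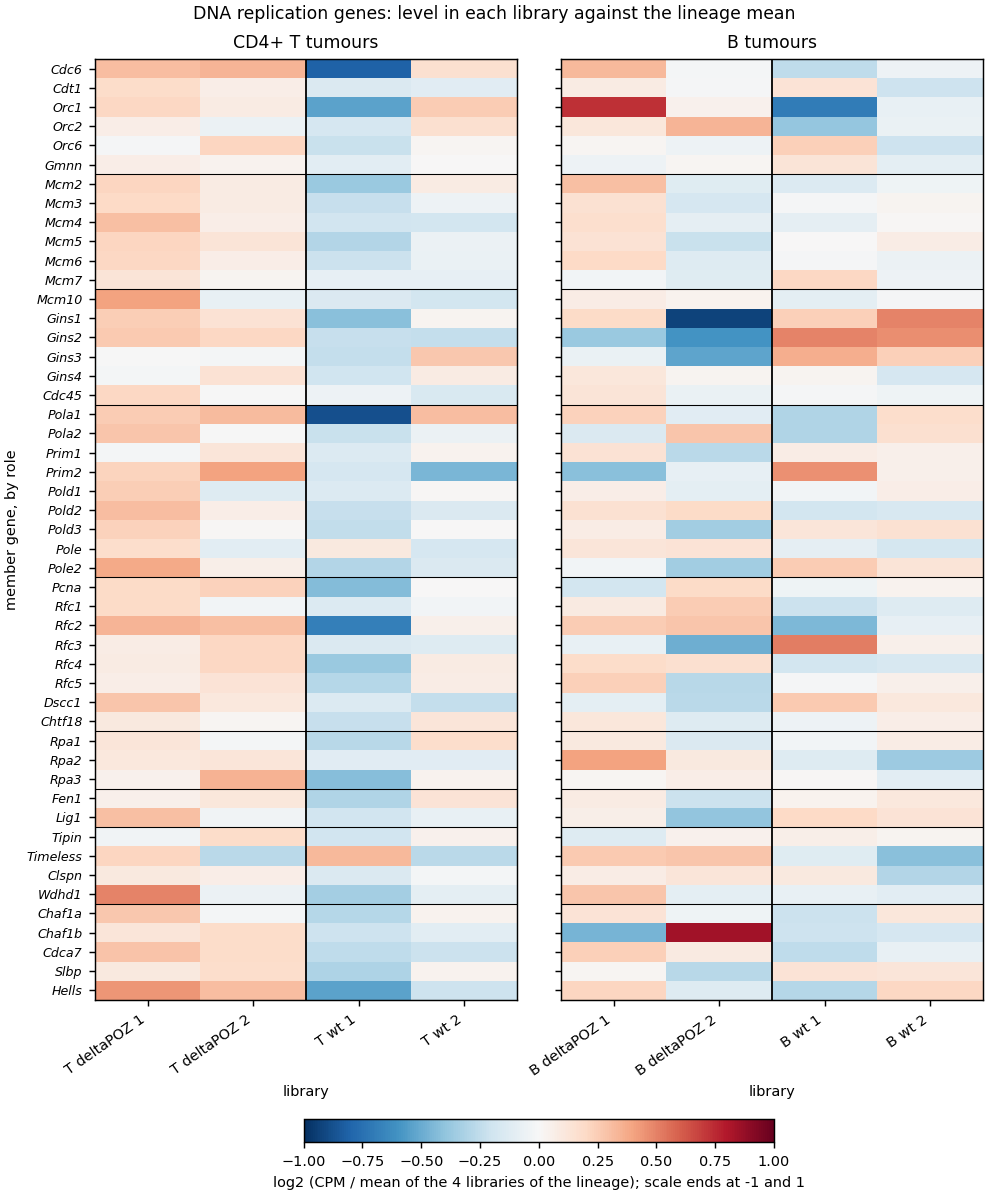
Level of the 49 members in each library as log2 of CPM over the mean of the 4 libraries of its lineage, T on the left and B on the right, with genes in rows grouped by role and black lines between roles. In T the T wt 1 column was the lowest in 41 of 49 rows, and in B single entries stood out, such as Chaf1b and Gins1 in B deltaPOZ 2 and Orc1 in B deltaPOZ 1.

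The T genes with the smallest p were Hells, Cdca7, Prim2 and Gins2. Hells, a chromatin remodeller needed for DNA methylation, was at 279.7 and 255.6 CPM in T deltaPOZ, against 142.3 and 178.9 CPM in T wt. Both T deltaPOZ libraries were above both T wt libraries, with a log2 change of 0.74 (SE 0.23) and an edgeR adjusted p of 1. Its partner Cdca7 was at 448.0 and 418.1 CPM in T deltaPOZ, against 307.8 and 317.0 CPM in T wt. The groups did not overlap and the pairs were tight, with a log2 change of 0.47 (SE 0.16, edgeR adjusted p = 1). Prim2, the large subunit of the primase, was at 188.4 and 214.1 CPM in T deltaPOZ, against 143.9 and 118.1 CPM in T wt. Again both T deltaPOZ libraries were higher, with a log2 change of 0.62 (SE 0.22, edgeR adjusted p = 1). Gins2 was at 27.2 and 26.2 CPM in T deltaPOZ, against 19.3 and 19.3 CPM in T wt. The gap between the groups was wider than the gap within them, with a log2 change of 0.47 (SE 0.20, edgeR adjusted p = 1).

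By role, the T values ran the same way in nearly every group. All 6 licensing genes, all 6 MCM subunits, all 9 polymerase and primase genes, all 8 clamp genes, all 3 RPA subunits, both genes of Okazaki fragment maturation and all 5 chromatin genes had positive fold changes, though Orc2 was at 0.00. The 2 negative values were those of Gins3 (-0.05) and the fork protein Timeless (-0.06). Gins3 turned positive with upper-quartile scaling and without T wt 2, and Timeless without T wt 1 or T deltaPOZ 2. The signs within the roles rested in part on T wt 1. Without it 8 members changed sign: Chtf18, Fen1, Gins4, Orc1, Orc2, Pola1, Rpa1 and Timeless. Without T wt 1, T deltaPOZ 2 and B wt 2 together 14 members did, with Orc6, Prim1, Rfc4, Rfc5, Rpa3 and Tipin in addition. In the MCM ring, both T deltaPOZ libraries lay above both T wt libraries for 5 of the 6 subunits, against 15.4% of all tested genes. Mcm4 was at 452.7 and 385.1 CPM in T deltaPOZ, against 322.2 and 323.6 CPM in T wt, with a log2 change of 0.38 (SE 0.17). Mcm5 had 506.5 and 478.1 CPM in T deltaPOZ, against 356.6 and 418.7 CPM in T wt, with a log2 change of 0.34 (SE 0.18). Without T deltaPOZ 1 the Mcm4 value was 0.25, and without T wt 1 the Mcm5 value was 0.23. The exception was Mcm2, where T wt 2 (349.4 CPM) lay between T deltaPOZ 1 and 2 (383.5 and 349.2 CPM), while T wt 1 was at 255.2 CPM.

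Pcna was at 543.2 and 558.7 CPM in T deltaPOZ, against 352.8 and 478.0 CPM in T wt, with a log2 change of 0.41 (SE 0.21) that was 0.20 without T wt 1. The processed pseudogene Pcna-ps2 was at 23.5 and 24.4 CPM in T deltaPOZ and 14.5 and 20.2 CPM in T wt, and reads of such a copy may be hard to assign. Rfc2, a subunit of the clamp loader, was at 119.2 and 116.0 CPM in T deltaPOZ, against 58.7 and 97.7 CPM in T wt. T wt 1 set much of that gap: the log2 fold change was 0.59 (SE 0.26) with it and 0.26 without it. Pold2, the second subunit of polymerase delta, was at 71.5 and 60.3 CPM in T deltaPOZ, against 49.3 and 52.2 CPM in T wt, a log2 change of 0.38 (SE 0.16). Pole2, the second subunit of polymerase epsilon, was at 53.3 and 42.6 CPM in T deltaPOZ, against 33.4 and 36.9 CPM in T wt, a log2 change of 0.45 (SE 0.21). Both subunits kept the 4 libraries apart by genotype, and without T deltaPOZ 1 the log2 changes were 0.24 for Pold2 and 0.27 for Pole2. Wdhd1 and Mcm10 rested on T deltaPOZ 1. The fork protein Wdhd1 was at 269.1 and 183.4 CPM in T deltaPOZ, against 150.7 and 178.5 CPM in T wt, with a log2 change of 0.46 (SE 0.24) that was 0.15 without T deltaPOZ 1. Mcm10, which helps to activate the helicase, was at 166.2 and 119.6 CPM in T deltaPOZ, against 113.6 and 110.4 CPM in T wt, with a log2 change of 0.35 (SE 0.19) that was 0.09 without T deltaPOZ 1. The edgeR adjusted p was 1 for each of Mcm4, Mcm5, Pcna, Rfc2, Pold2, Pole2, Wdhd1 and Mcm10.

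**Figure D2:**
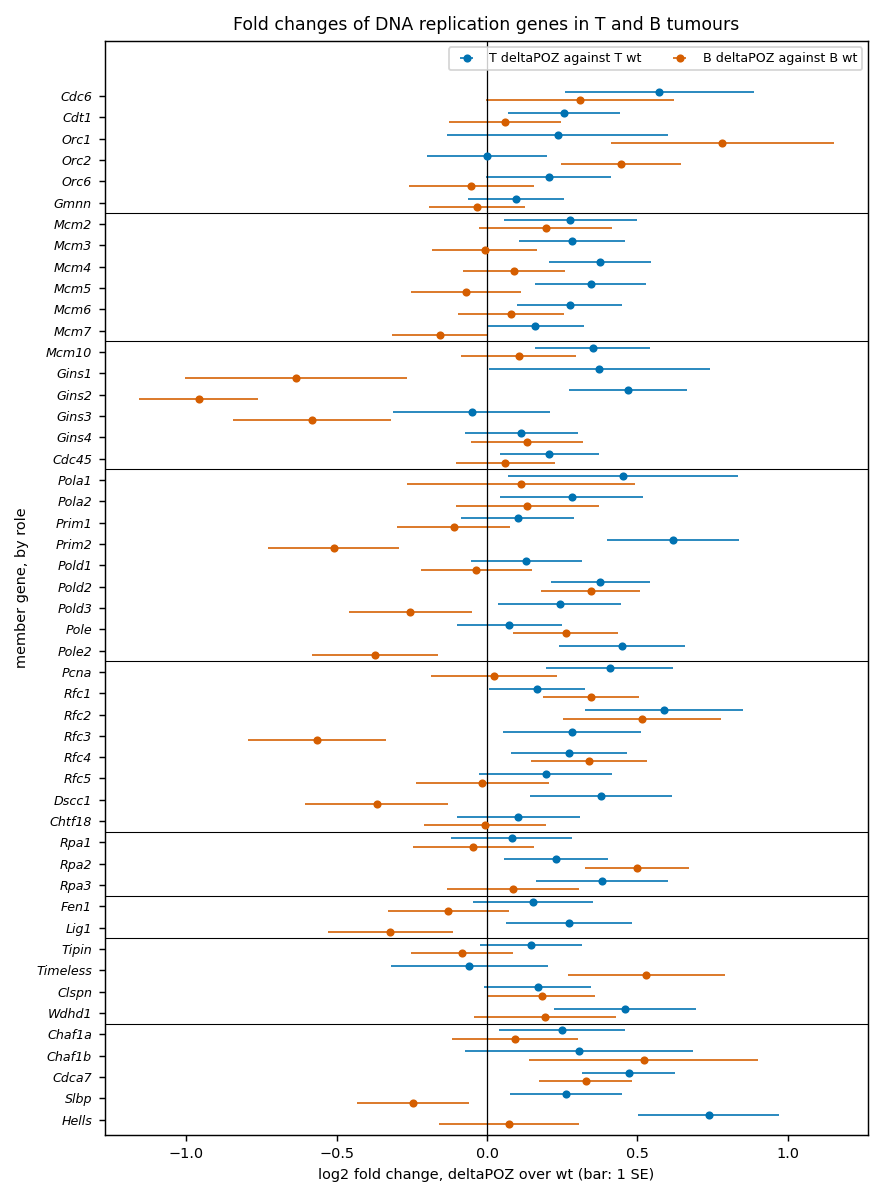
Log2 fold change (deltaPOZ over wt) of each of the 49 members with 1 SE, in T (blue) and B (orange), in the order of roles, n = 2 libraries per group. The T values lie to the right of 0 for 47 members (48 with upper-quartile scaling), with a median of 0.27, and the B values spread to both sides, from Gins2 at -0.96 to Orc1 at 0.78.

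The second comparison was B deltaPOZ against B wt. The replication genes showed no common direction there, with a spread between genes that was wider than in T. Of the 49 members, 27 had a positive log2 fold change and the median was 0.06, while 48.1% of all tested genes were positive. With upper-quartile scaling 31 were positive, with a median of 0.10, and with the filter of 10 counts in total 34 were, with a median of 0.12. Both B deltaPOZ libraries lay above both B wt libraries in 13 members (26.5%), against 19.9% of all tested genes, and below both in 10 members (20.4%), against 19.1%. edgeR called 0 of the 49 members and 1 of 16456 genes (0.00608%). At an unadjusted p below 0.05 it had 3 of the 49 members and 1996 genes (12.1%). DESeq2 called 1 member, Gins2, and 682 genes (4.14%), and limma-voom called 0 members and 6 genes (0.0365%).

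Gins2 had the smallest p of the 49. It was at 24.4 and 20.8 CPM in B deltaPOZ, against 44.5 and 43.5 CPM in B wt, so both B deltaPOZ libraries were well below both B wt libraries. The log2 fold change was -0.96 (SE 0.20, edgeR adjusted p = 0.207, DESeq2 adjusted p = 6.2e-05), and it ranged between -1.03 and -0.85 when each library was left out. Gins2 shares 2758 exonic bases with Gse1 on the opposite strand, and the strand setting of the counting is not given in the sources used here. Gse1 was at 10.1 and 17.7 CPM in B deltaPOZ and 46.3 and 27.4 CPM in B wt, and its part in the Gins2 value was not tested. In T, where Gins2 was higher in T deltaPOZ, Gse1 was at 54.6 and 51.3 CPM in T deltaPOZ and 57.1 and 75.9 CPM in T wt. The other GINS subunits differed from each other in B. Gins3 was at 28.7 and 20.9 CPM in B deltaPOZ, against 38.7 and 35.6 CPM in B wt, with a log2 change of -0.58 (SE 0.26, edgeR adjusted p = 0.437) that was -0.37 without B deltaPOZ 2. Gins1 was low only in B deltaPOZ 2, at 24.3 CPM, against 52.6 CPM in B deltaPOZ 1 and 54.5 and 65.0 CPM in B wt. Gins4 was at 70.1 and 66.0 CPM in B deltaPOZ and 66.3 and 57.8 CPM in B wt, where the groups overlapped.

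Rfc3 and Prim2 were also lower in both B deltaPOZ libraries. Rfc3, a small subunit of the clamp loader, was at 81.4 and 60.8 CPM in B deltaPOZ, against 122.0 and 88.4 CPM in B wt. The spread within each group was of the size of the gap between them, and the log2 fold change was -0.57 (SE 0.23, edgeR adjusted p = 0.404), with -0.31 without B wt 1 and -0.37 without B deltaPOZ 2. Prim2 was at 97.0 and 122.3 CPM in B deltaPOZ, against 178.0 and 134.5 CPM in B wt. Its log2 change of -0.51 (SE 0.22, edgeR adjusted p = 0.421) was -0.29 without B wt 1 and -0.30 without B deltaPOZ 1. Rfc1 and Rfc2, the large subunit and a small subunit of the same loader, lay on the other side. Rfc1 was at 241.0 and 269.4 CPM in B deltaPOZ, against 194.9 and 206.8 CPM in B wt, a log2 change of 0.35 (SE 0.16, edgeR adjusted p = 0.446). Rfc2 was at 186.3 and 189.2 CPM in B deltaPOZ, against 114.6 and 148.2 CPM in B wt, a log2 change of 0.52 (SE 0.26, edgeR adjusted p = 0.476). Rfc2 shares 952 exonic bases with Lat2 on the opposite strand, which was at 5.71 and 57.9 CPM in B deltaPOZ and 7.40 and 12.8 CPM in B wt. The levels of clamp loader subunits thus pointed both ways in the same B tumours, with 4 of the 8 clamp genes positive, and Chtf18 and Rfc5 changed sign with upper-quartile scaling.

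Among the members that were higher in both B deltaPOZ libraries, Rpa2 had the smallest p. Rpa2, a subunit of the complex that coats single-stranded DNA, was at 238.9 and 193.2 CPM in B deltaPOZ, against 165.2 and 140.8 CPM in B wt. Its log2 change of 0.50 (SE 0.17, edgeR adjusted p = 0.361) was the size of that of its neighbours, since the 299 tested genes within 10 Mb on chromosome 4 stood at a median of 0.52. Orc1, the large subunit of the origin recognition complex, was at 68.3 and 42.3 CPM in B deltaPOZ, against 25.3 and 39.1 CPM in B wt. Its log2 fold change was 0.78 (SE 0.37, edgeR adjusted p = 0.451), and it was 0.45 without B deltaPOZ 1 and 1.19 without B wt 2. Orc2 of the same complex was at 219.4 and 257.3 CPM in B deltaPOZ, against 155.4 and 194.6 CPM in B wt, and its log2 fold change was 0.45 (SE 0.20, edgeR adjusted p = 0.436), with 0.30 without B wt 1 and 0.68 without B wt 2. Cdca7 was at 493.2 and 447.0 CPM in B deltaPOZ, against 351.6 and 397.3 CPM in B wt, a log2 change of 0.33 (SE 0.16, edgeR adjusted p = 0.450). Pold2 was at 111.3 and 114.4 CPM in B deltaPOZ, against 88.2 and 89.6 CPM in B wt, with almost no spread within the groups. Its log2 fold change was 0.34 (SE 0.16, edgeR adjusted p = 0.453). Timeless, which travels with the fork, was at 183.4 and 185.1 CPM in B deltaPOZ, against 140.7 and 114.6 CPM in B wt, a log2 change of 0.53 (SE 0.26, edgeR adjusted p = 0.465). In the MCM2-7 ring the groups overlapped for all 6 subunits, with log2 fold changes between -0.16 (Mcm7) and 0.19 (Mcm2).

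Several of the B values came from 1 library in which the genes around the member shifted too. In B deltaPOZ 2, Gins1 was 1.21 below the other B libraries on the log2 scale (a shift of -1.21), and the 104 expressed genes within 10 Mb on chromosome 2 had a median shift of -0.92. In the same library Chaf1b, a subunit of the chromatin assembly factor, was at 151.4 CPM, against 61.2 CPM in B deltaPOZ 1 and 73.0 and 75.1 CPM in B wt. That was a log2 shift of 1.12, and its 52 neighbours on chromosome 16 had a median shift of 0.64. Orc1 in B deltaPOZ 1 had a shift of 0.97 with its 89 neighbours on chromosome 4 at 0.49. In T, Wdhd1 in T deltaPOZ 1 had a shift of 0.66 with its 85 neighbours on chromosome 14 at 0.45. Gmnn and Pola1 did not follow their neighbours. Gmnn in B deltaPOZ 2 had a shift of 0.03 with its 89 neighbours on chromosome 13 at -0.52. Pola1, the catalytic subunit of polymerase alpha, on chromosome X, was at 102.9 CPM in T wt 1, against 226.4 and 236.0 CPM in T deltaPOZ and 235.0 CPM in T wt 2. That was a shift of -1.17 with its neighbours at -0.06.

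**Figure D3:**
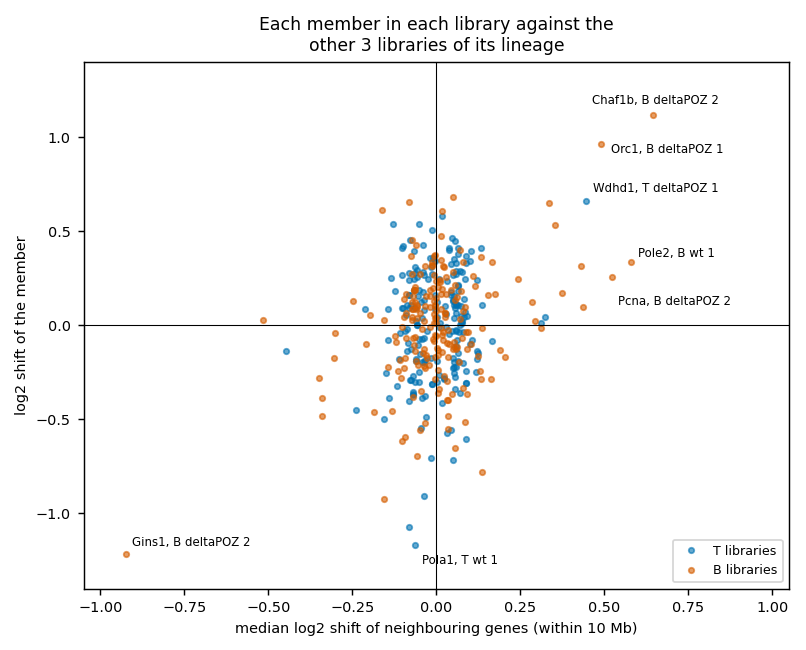
Each of the 49 members in each of the 8 libraries, with the median log2 shift of the expressed genes within 10 Mb on the x axis and the log2 shift of the member on the y axis, both against the other 3 libraries of the lineage (T in blue, B in orange). Most points lie near 0 on the x axis, and Gins1 (-0.92 and -1.21) and Chaf1b (0.64 and 1.12) in B deltaPOZ 2 stand at its ends.

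Set beside each other, the members that lay above in T had no common side in B. In 8 members both deltaPOZ libraries lay above both wt libraries in T and in B: Cdca7, Pold2, Rfc1, Rfc2, Rpa2, Rpa3, Cdc6 and Mcm10, a pattern that 3.60% of all tested genes had. In 9 members they lay above in T and below in B, namely Gins1, Gins2, Prim2, Pole2, Pold3, Rfc3, Dscc1, Lig1 and Slbp, a pattern that 2.30% of all tested genes had. A further 14 members lay above in T and overlapped in B, a pattern that was not counted over all tested genes. Each of these patterns contains the T side, which 63.3% of members had, against 15.4% of all tested genes. The B sides by themselves were near those of all genes, at 26.5% against 19.9% above and 20.4% against 19.1% below. Gins1 was far below B wt only in B deltaPOZ 2. For the mean effect over T and B, edgeR called 0 members and 0 genes (0.0%), and DESeq2 called 1 member, Cdca7, and 318 genes (1.93%). limma-voom called 0 members and 0 genes, and at an unadjusted p below 0.05 edgeR had 5 members and 1464 genes (8.90%). Cdca7 had the smallest p, with a mean log2 effect of 0.40 (SE 0.11, edgeR adjusted p = 0.457, DESeq2 adjusted p = 0.0427). It was followed by Pold2 at 0.36 (SE 0.12), Rfc2 at 0.55 (SE 0.19), Rpa2 at 0.36 (SE 0.12), Hells at 0.40 (SE 0.17) and Rfc1 at 0.26 (SE 0.11), with edgeR adjusted p between 0.507 and 0.568. In B the Hells groups overlapped, at 434.1 and 343.2 CPM in B deltaPOZ and 307.1 and 431.8 CPM in B wt.

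The test of the difference between the lineages (the T effect minus the B effect) also called 0 members and 0 genes (0.0%) in edgeR. At an unadjusted p below 0.05 it had 4 members and 1030 genes (6.26%). DESeq2 called 1 member, Gins2, and 225 genes (1.37%), and limma-voom called 0 members and 0 genes. Among the members the largest difference was that of Gins2, at 1.43 on the log2 scale (SE 0.28, edgeR adjusted p = 0.444, DESeq2 adjusted p = 5.1e-05), with its 4 groups at 27.2 and 26.2 CPM in T deltaPOZ, 19.3 and 19.3 CPM in T wt, 24.4 and 20.8 CPM in B deltaPOZ, and 44.5 and 43.5 CPM in B wt. Prim2 followed at 1.13 (SE 0.31, edgeR adjusted p = 0.643). Pole2 differed by 0.82 (SE 0.30), with B levels of 47.5 and 38 CPM in B deltaPOZ and 57.8 and 52.9 CPM in B wt, and its 92 tested neighbours on chromosome 12 stood at a median of -0.43 in B. Rfc3 differed by 0.85 (SE 0.33), the clamp loader subunit Dscc1 by 0.75 (SE 0.34), and Lig1, the ligase that joins Okazaki fragments, by 0.60 (SE 0.30), with edgeR adjusted p between 0.746 and 0.809 for these 4.

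**Figure D4:**
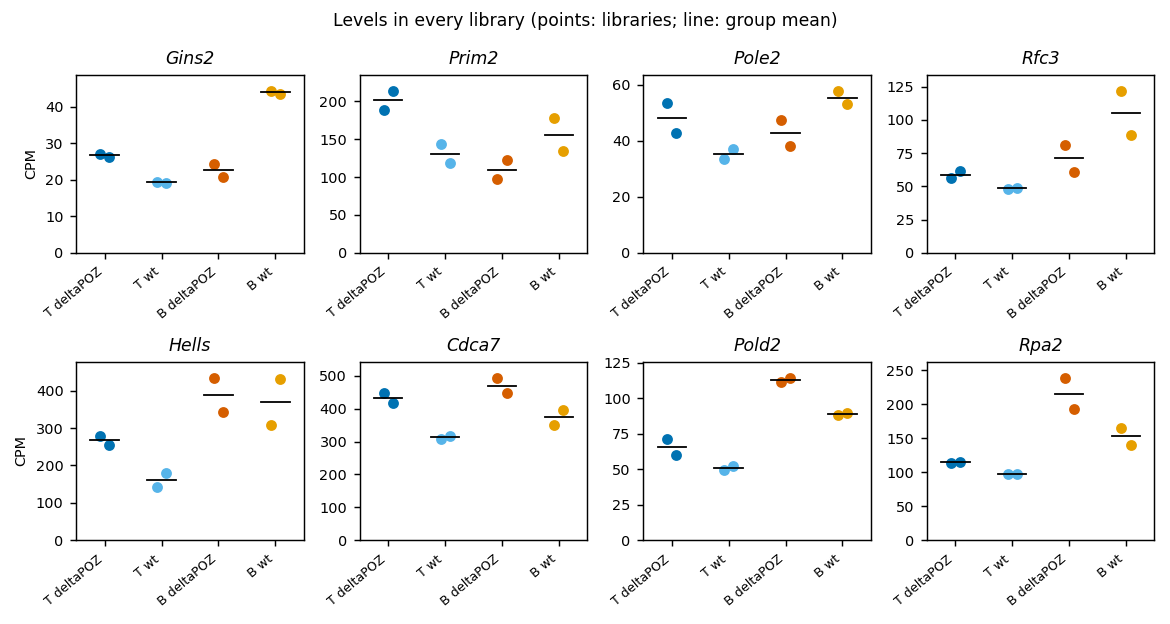
CPM in every library for 8 members (points are libraries, horizontal lines are group means, n = 2 per group, y axes start at 0). Gins2, Prim2, Pole2 and Rfc3 in the upper row were higher in both T deltaPOZ libraries than in T wt and lower in both B deltaPOZ libraries than in B wt, and Cdca7, Pold2 and Rpa2 in the lower row were higher in both deltaPOZ groups.

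Lists of related genes were read from the same fit. Of 33 other replication genes that are not among the 49, 27 had a positive log2 fold change in T, with a median of 0.12, and 15 in B, with a median of -0.02, and edgeR called 0 in either. Uhrf1, which brings DNA methylation to the fork, was at 473.6 and 442.7 CPM in T deltaPOZ, against 310.0 and 361.8 CPM in T wt, and at 409.1 and 410.2 CPM in B deltaPOZ, against 541.5 and 591.3 CPM in B wt. The groups did not overlap in either lineage and the direction was opposite. The difference between the lineages was 0.92 on the log2 scale (edgeR adjusted p = 0.616, DESeq2 adjusted p = 0.0314). Tonsl, a fork repair factor, was lower in deltaPOZ in both, at 56.2 and 49.3 CPM in T deltaPOZ, against 70.5 and 74.7 CPM in T wt, and at 35.2 and 41.1 CPM in B deltaPOZ, against 82.4 and 77.5 CPM in B wt. Its mean log2 effect was -0.76 (edgeR adjusted p = 0.278, DESeq2 adjusted p = 3.3e-05). Pold4, the small subunit of polymerase delta, was at 12 and 18 CPM in B deltaPOZ, against 40.2 and 36.5 CPM in B wt, with a log2 change of -1.36 (SE 0.28, edgeR adjusted p = 0.207, DESeq2 adjusted p = 0.00057), and the difference between the lineages had an edgeR adjusted p of 0.559 and a DESeq2 adjusted p of 0.0046. Pold2 of the same enzyme was higher in both B deltaPOZ libraries.

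Of the 10 deoxynucleotide supply genes, 8 had a positive log2 fold change in T (median 0.24) and 2 in B (median -0.26), with 0 called by edgeR in either. Rrm2, the small subunit of ribonucleotide reductase, was at 169.7 and 139.0 CPM in B deltaPOZ, against 290.6 and 294.2 CPM in B wt, a log2 change of -0.92 (SE 0.28, edgeR adjusted p = 0.320). Both B deltaPOZ libraries lay far below both B wt libraries. Of the 17 regulators of the G1 to S transition, 12 were positive in T (median 0.14) and 6 in B (median -0.14), again with 0 called by edgeR. The CDK inhibitor Cdkn2c was at 27.6 and 15.3 CPM in B deltaPOZ, against 87.0 and 46.2 CPM in B wt, a log2 change of -1.63 (SE 0.39, edgeR adjusted p = 0.252, DESeq2 adjusted p = 0.0058).

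Genes of mitosis did not have the sign of the replication genes in T. Of the 18 mitosis markers, 1 had a positive log2 fold change in T, with a median of -0.20, and in 10 both T deltaPOZ libraries lay below both T wt libraries, against 17.0% of all tested genes. edgeR called 0 of the 18. Cenpf, a kinetochore protein, was at 238 and 250 CPM in T deltaPOZ, against 343.8 and 365.0 CPM in T wt, a log2 change of -0.54 (SE 0.16, edgeR adjusted p = 1). Both T wt libraries were above 0 in the mitosis list, at 0.09 in T wt 1 and 0.11 in T wt 2, against -0.08 in T deltaPOZ 1 and -0.12 in T deltaPOZ 2, while T wt 1 was the lowest library in the replication members. In B, 5 of the 18 were positive, with a median of -0.30, and in 12 both B deltaPOZ libraries lay below both B wt libraries, against 19.1% of all tested genes. Cdk1, the mitotic kinase, was at 206.3 and 195.9 CPM in B deltaPOZ, against 331.3 and 279.2 CPM in B wt, a log2 change of -0.60 (SE 0.16, edgeR adjusted p = 0.278, DESeq2 adjusted p = 0.034). Bub1b, a checkpoint kinase, went the other way, at 571.5 and 701.4 CPM in B deltaPOZ, against 359.7 and 418.6 CPM in B wt, a log2 change of 0.71 (SE 0.19, edgeR adjusted p = 0.283).

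**Figure D5:**
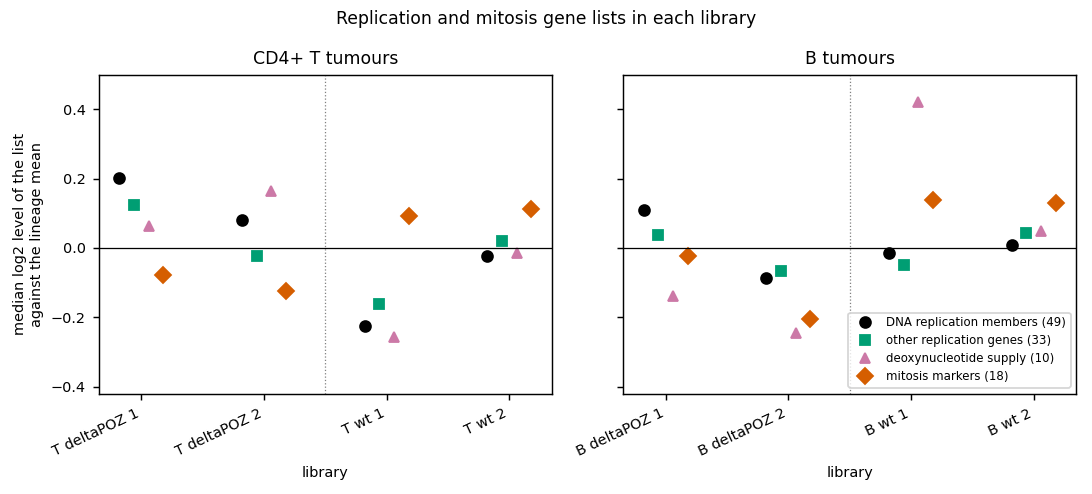
Median log2 level of 4 gene lists in each library, against the mean of the 4 libraries of its lineage, with T on the left and B on the right and the number of genes of each list in the legend. In T the replication members (black circles) were at 0.20 and 0.08 in T deltaPOZ and -0.23 and -0.02 in T wt, and the mitosis markers (orange diamonds) at -0.08 and -0.12 in T deltaPOZ and 0.09 and 0.11 in T wt.

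The last comparison was T against B over both genotypes, with 4 libraries on each side. Part of the replication machinery was lower in T tumours than in B tumours, and no member was called higher. edgeR called 13 of the 49 members lower (26.5%), against 16.0% of all tested genes called lower, and 0 members higher, against 19.3% of all genes. The median log2 fold change of the 49 was -0.27, with 45 negative (against 47.6% of all tested genes), while the median of all tested genes was 0.05. In 16 members (32.7%) all 4 T libraries lay below all 4 B libraries, against 17.0% of all tested genes, and in 0 did they lie above, against 20.1%. All 13 were also called by DESeq2 and by limma-voom. When each library was left out in turn, 6 to 12 members were called, and Pold2, Rpa2, Orc2, Hells, Rfc4 and Tipin were called in all 8 of those fits. Without B wt 2, T wt 1 and T deltaPOZ 2 together, which leaves 1 residual degree of freedom, 0 members were called. Erythroid markers differed along this contrast: 12 of 12 were detected in every T library, and their sum was 5999 to 27385 CPM in T and 720 to 2143 CPM in B. Most of the B sum was the transferrin receptor Tfrc, a gene of dividing cells too, and the other 11 markers summed to 5093 to 24587 CPM in T and 9.24 to 224.4 CPM in B, with Gata1 at 0 in 3 B libraries. Their part in the lower levels in T was not tested.

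Pold2 had the smallest p. It was at 71.5 and 60.3 CPM in T deltaPOZ and 49.3 and 52.2 CPM in T wt, against 111.3 and 114.4 CPM in B deltaPOZ and 88.2 and 89.6 CPM in B wt. All T libraries lay below all B libraries and Pold2 fell by 0.79 on the log2 scale (SE 0.12, edgeR adjusted p = 0.0038). Rpa2, at 97.7 to 115.2 CPM in T and 140.8 to 238.9 CPM in B, fell by 0.78 (SE 0.12, edgeR adjusted p = 0.0047). Orc2, at 99.5 to 125.0 CPM in T and 155.4 to 257.3 CPM in B, fell by 0.86 (SE 0.14, edgeR adjusted p = 0.0053), and it shares 1150 exonic bases with Nif3l1 on the opposite strand, which was at 24.5 to 27.0 CPM in T and 46.6 to 54.7 CPM in B. The groups of each gene were apart. Hells, at 142.3 to 279.7 CPM in T and 307.1 to 434.1 CPM in B, fell by 0.87 (SE 0.17, edgeR adjusted p = 0.0087). Tipin, the partner of Timeless at the fork, was at 106.7 to 138.3 CPM in T and 171.8 to 195.9 CPM in B and fell by 0.62 (SE 0.12, edgeR adjusted p = 0.0091).

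The clamp loader RFC gave 4 of the 13 calls. Rfc4, at 50.4 to 75.1 CPM in T and 94.6 to 121.7 CPM in B, fell by 0.71 (SE 0.14, edgeR adjusted p = 0.0090). It shares 194 exonic bases with Eif4a2 on the opposite strand, which was at 343.5 to 534.4 CPM in T and 676.0 to 875.2 CPM in B. The part of Eif4a2 in the Rfc4 value was not tested. Rfc1, at 149.6 to 187.1 CPM in T and 194.9 to 269.4 CPM in B, fell by 0.46 (SE 0.11, edgeR adjusted p = 0.021). In Rfc2 and Rfc3 the lineages overlapped. Rfc3 was at 48.1 to 61.5 CPM in T and 60.8 to 122.0 CPM in B and fell by 0.70 (SE 0.16, edgeR adjusted p = 0.018). Rfc2 was at 58.7 to 119.2 CPM in T and 114.6 to 189.2 CPM in B and fell by 0.71 (SE 0.19, edgeR adjusted p = 0.026). Lat2, with which it shares 952 exonic bases, was at 2.24 to 5.05 CPM in T and 5.71 to 57.9 CPM in B. The part of Lat2 in the Rfc2 value was not tested. The fifth subunit, Rfc5, was at 76.4 to 102.2 CPM in T and 99.0 to 141.0 CPM in B and did not pass. Rfc1, Rfc2 and Rfc3 lost their calls in 4 or 5 of the 8 fits without 1 library. The remaining calls were Prim1, the catalytic subunit of the primase, which fell by 0.53 (SE 0.13), Pole, the catalytic subunit of polymerase epsilon, which fell by 0.42 (SE 0.12), Orc6, which fell by 0.48 (SE 0.15), and Gins2, which fell by 0.47 (SE 0.14). Their edgeR adjusted p values were between 0.023 and 0.043, and each of these 4 lost its call in at least 5 of the 8 fits without 1 library. Gins2 was low in B deltaPOZ as well, at 24.4 and 20.8 CPM, within the T range of 19.3 to 27.2 CPM, so the T libraries lay below B wt and not below B deltaPOZ, and Gins2 did not pass in the additive model (edgeR adjusted p = 0.246).

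Of the 6 subunits of the MCM2-7 ring, edgeR called 0 in the fit as reported, where their smallest adjusted p was 0.053. Mcm3 was called lower in T by DESeq2 (adjusted p = 0.025) and limma-voom (adjusted p = 0.044). It was also called by edgeR with median-of-ratios scaling (adjusted p = 0.049) and with upper-quartile scaling (adjusted p = 0.047). Mcm4, at 322.2 to 452.7 CPM in T and 280.8 to 337.4 CPM in B, was the subunit with a positive log2 fold change, at 0.29, and the other 5 ranged down to -0.38 in Mcm3. Of the 33 other replication genes, edgeR called 8 lower and 0 higher, against 16.0% lower and 19.3% higher of all tested genes. Ssrp1, a subunit of the histone chaperone FACT, was at 251.0 to 376.6 CPM in T and 585.2 to 615.0 CPM in B and fell by 0.85 (SE 0.14, edgeR adjusted p = 0.0057). Of the 10 deoxynucleotide supply genes, 4 were called lower and 0 higher, against the same 16.0% and 19.3%. Dctpp1, which clears modified deoxycytidine nucleotides, was at 32.0 to 55.4 CPM in T and 95.9 to 178.5 CPM in B and fell by 1.61 (SE 0.19, edgeR adjusted p = 0.0019). Of the 18 mitosis markers, 4 were called higher and 3 lower, near the 19.3% and 16.0% of all tested genes. Mki67, the proliferation antigen, was at 1836 to 3026 CPM in T and 1050 to 1533 CPM in B, a log2 rise of 0.84 (SE 0.15, edgeR adjusted p = 0.0066). Of the 17 G1 to S regulators, 4 were called higher and 1 lower, where the share called higher was also near that of all tested genes. Rb1 (log2 fold change 1.17, edgeR adjusted p = 0.0074) and Cdkn2c (1.65, edgeR adjusted p = 0.0054), which restrain entry into S phase, were among the 4.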

How the data were processed

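Messenger RNA was sequenced from 8 spleen tumours, and the deposited values are whole-number read counts per gene. Per the labels' protocols, RNA was extracted with a MagMax-96 kit and made into stranded TruSeq mRNA libraries. Per the submitters' processing notes, the authors used TopHat2 2.0.10, SAMtools, HTSeq, DESeq and the builds mm10 and GRCm38. The release of the gene models, whether strand was used and how overlaps were handled are not given in the sources used. No-feature counts (30.4 to 39.3% of gene, no-feature and ambiguous counts) and ambiguous counts (0.471 to 0.554%) were left out. Names, positions and exon lengths came from GENCODE M21, which held 40340 of 41214 identifiers (97.9%).

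All 8 libraries were fitted in edgeR 4.0.16 (TMM, filterByExpr, glmQLFit, glmQLFTest, 1 mean per group, 4 residual degrees of freedom), with Benjamini-Hochberg adjustment over all 16456 tested genes. SE is the size of the log2 fold change over the square root of F. The biological coefficient of variation was 0.45. Other tools were limma 3.58.1, DESeq2 1.42.0, R 4.3.3, Python 3.11.15, pandas 2.3.3, NumPy 2.4.6 and matplotlib 3.10.9. The code was tested on simulated data. Levels are CPM with TMM factors, and shifts used genes above 10 CPM within 10 Mb. Libraries of a group differed by 176.5 to 237.3 chi-square units per gene, so none was a duplicate. Replicates are numbered in record order and pair nothing.

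The members and lists were chosen with earlier results of these data known. Fold changes are named for members called, the 12 with the smallest p in T, B and T against B, the 6 in the mean and the difference, and up to 4 of the other lists. Members with large shifts in 1 library (Gins1, Chaf1b, Pola1) were chosen after their values were seen, as was Gmnn, whose neighbours shifted in 1 library while it did not. Alternatives were median-of-ratios and upper-quartile scaling, DESeq2, limma-voom, filters of 10 counts in total and of 5 CPM in 2 libraries, an additive model, fits of each lineage by itself, an adjusted p below 0.1 and left-out libraries. The count of members above T wt 2 alone was added after seeing the data.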

Additional observations from a re-analysis of the deposited data

How the results depend on the processing

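No paired analysis was possible because the labels give the groups no shared replicate numbers. In B deltaPOZ against B wt, genes called over all tested genes were 1 in the edgeR fit as reported, 2 with upper-quartile scaling, 682 with DESeq2, 6 with limma-voom, 9 with the filter of 5 CPM, 6 with B fitted alone, 39 at a threshold of 0.1, and 0 to 9 with each library left out. In T deltaPOZ against T wt they were 51 with DESeq2, against 0. For the mean effect they were 318 with DESeq2, 1 with the additive model, 1 at 0.1 and 0 to 5 with a library left out, against 0. For the difference they were 225 with DESeq2 and 0 to 4 with a library left out, against 0. Members called were 1 with DESeq2 in B, in the mean effect and in the difference, against 0 each. In T against B, where 5801 genes and 13 members were called, 3621 to 4900 genes and 6 to 12 members were called with a library left out, 1312 genes and 0 members without the 3 libraries that stood apart, and 20 members at 0.1.

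The members' median log2 fold change in T was 0.27, and 0.17 to 0.37 with a library left out. In B it was 0.06, -0.01 (without B wt 1) to 0.11 with a library left out, 0.10 with upper-quartile scaling and 0.12 with the filter of 10 counts in total. For the difference it was 0.21, with 0.11 to 0.33 when a library was left out and 0.10 without the 3 libraries. For comparison, the pooled SD of the members' median between replicates was 0.11. Of the genes named with a fold change, those that changed sign had values near 0 in T. Gins3 (-0.05) was 0.0029 with upper-quartile scaling, and -0.29 to 0.23 with a library left out. Timeless (-0.06) was 0.47 without the 3 libraries and -0.33 to 0.26 with a library left out, and Orc2 (0.00) was -0.12 without the 3 libraries and -0.16 to 0.18 with a library left out. Among all 49 members, 1 changed sign in T and 4 in B with upper-quartile scaling, and 7 in B with the filter of 10 counts in total. Up to 8 in T and 11 in B changed sign with a library left out. Without the 3 libraries together, 14 changed sign in T and 6 in B. The cause of these shifts was not tested, apart from the fewer samples of a left-out fit. With 2 libraries per group and 4 residual degrees of freedom, small changes such as those in T could not be told from the spread between tumours.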
